A study of Homo sapiens with 30 samples.

Results

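The genes described here drive and restrain the passage of cells through G1. They are 10 of the 22367 genes with a symbol in the deposited table, and they were chosen by name: the cyclins CCND1, CCND3, CCNE1 and CCNE2, the kinases CDK2, CDK4 and CDK6, the inhibitor CDKN1B, and RB1 and E2F1. Of several transcripts of a gene, the one with the most reads was used. All 10 were among the 11420 genes that passed the filter on low values and were tested for level. CCNE1 passed it only through the 3 libraries at 0 h and CCNE2 reached the cutoff in 13 libraries, while the other 8 genes reached it in all 30.

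As background, D-type cyclins bind CDK4 and CDK6, and E-type cyclins bind CDK2, to phosphorylate the retinoblastoma protein RB1. Phosphorylated RB1 releases E2F factors such as E2F1, which switch on genes needed for DNA replication, the E-type cyclins among them. CDKN1B encodes p27, which binds and inhibits complexes of cyclins and kinases. In prostate cancer cells the androgen receptor is known to promote entry into S phase through these proteins.

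The samples were libraries of 22Rv1, a human cell line of castration-resistant prostate cancer, in which newly made RNA was marked with the uridine analogue 4-thiouridine (s4U). Cells were given 800 µM s4U, and after the first 30 min some were collected as the 0 h group. The rest went into fresh medium that held s4U at the same dose together with 1.2 µM KB742, 4 µM KI-ARv-03 or DMSO, the solvent, and were collected 2, 4 or 8 h later. That made 10 groups of 3 libraries, which read the 3′ ends of transcripts. KB742 and KI-ARv-03 are inhibitors of CDK9, the kinase of P-TEFb that releases paused RNA polymerase II into elongation. Their doses differed, so their values stand side by side and were not compared with each other.

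The level of a gene is given in rescaled CPM (reads scaled to a common library total), which is relative to the other genes of the same library. In bulk RNA, fewer cells that make a transcript and less of it per cell cannot be told apart. A gene with at least 20 reads in a library also has a conversion level in percent, a measure of T-to-C changes at s4U that is higher when more of the RNA was made during labelling. A gene was called where limma gave it a p under 0.05 after Benjamini-Hochberg adjustment across the genes tested. Nothing in the labels says that the 3 libraries of a group came from separate cultures, so p-values measure the spread between these libraries only.

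The 30 libraries held 3376884 to 9265131 reads. All 10 luminal prostate markers were measured, and they summed to 981 to 1750.2 CPM per library. Basal, endothelial and immune markers summed to at most 1.26, 0.398 and 4.30 CPM. Of the stromal markers COL1A1 passed the filter, with sums of 0.520 to 24.0 CPM, and of the neuroendocrine markers CHGA and SYP did, with sums of 17.7 to 244 CPM. Mean conversion over all reads was 1.17% in replicate 1 with KI-ARv-03 at 4 h, against 0.351% and 0.390% in the others of its group. Fewer genes were detected in replicate 2 with KB742 at 2 h (12048, against 13711 and 13405 in the others of its group) and in replicate 3 at 0 h (12173, against 14063 and 14354). These 3 libraries were left out together in a fit that was not planned. Where a call changes without them, the adjusted p of that fit is also given. None of the 3 had DMSO or was collected at 8 h. A conversion difference between a compound and DMSO at 8 h, or between KB742 and DMSO at 4 h, therefore had the same size in that fit. Only the spread, which all groups share, and the adjustment differed. Replicate 3 with DMSO at 8 h stayed in that fit, though it had the fewest genes detected of all libraries (11676, against 12750 and 13645 in the others of its group). It also had the fewest reads on the genes tested (1413436).

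Of the 10 genes, 7 have an entry in the table of RefSeq promoters: CCND3, CCNE1, CDK4, CDK6, RB1, E2F1 and CDKN1B. The promoters of CDK4 and E2F1 are shown because the levels of these genes moved together over libraries, as described further on. Each runs from 250 bases before the start of the gene to 50 bases after it, 5′ to 3′ on the strand of the gene, which is the minus strand for both. On GRCh38.p14 they lie at chr12:57752261-57752560 for CDK4 and chr20:33686336-33686635 for E2F1.
CDK4: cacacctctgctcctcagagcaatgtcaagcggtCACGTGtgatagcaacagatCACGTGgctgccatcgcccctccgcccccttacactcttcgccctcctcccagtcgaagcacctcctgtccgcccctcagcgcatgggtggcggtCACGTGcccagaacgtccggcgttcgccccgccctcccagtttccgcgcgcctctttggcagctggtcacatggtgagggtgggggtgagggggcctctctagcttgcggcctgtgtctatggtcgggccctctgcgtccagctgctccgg
E2F1: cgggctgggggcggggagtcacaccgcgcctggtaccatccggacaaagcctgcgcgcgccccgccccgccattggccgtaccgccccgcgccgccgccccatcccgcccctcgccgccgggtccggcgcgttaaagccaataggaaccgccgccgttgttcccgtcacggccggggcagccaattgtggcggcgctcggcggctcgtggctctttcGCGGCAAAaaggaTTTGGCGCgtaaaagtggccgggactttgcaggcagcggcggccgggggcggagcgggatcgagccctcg
Capitals mark letters that were searched on both strands. The letters TTTCCCGC, TTTGGCGC, TTTCGCGC and TTTGCCGC are forms of the site that E2F factors bind. The E2F1 promoter held 2 of them, as GCGGCAAA from base -33 and TTTGGCGC from base -20, counted from the start of the gene. The entries of the other 6 genes held none. For RB1 the entry lay at chr13:48476200-48476499 with 38.3% GC, and no other start of RB1 was searched. Whether this entry is the start of the RB1 transcript measured was not checked. The search therefore does not show that the promoter of that transcript lacks the E2F forms. Of 35116 promoters of this length in the table, 1164 (3.31%) held at least 1. The letters CACGTG, an E-box that reads the same on both strands, were searched after the CDK4 promoter had been looked at. They occurred 3 times there, from bases -216, -196 and -101, and once in a promoter of CDK6. Of all promoters 2548 (7.26%) held CACGTG and 33 (0.0940%) held it at least 3 times. None of these CACGTG matches overlapped a match to the E2F forms. A match of letters describes the sequence and is not a bound site.

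Which of these transcripts were replaced by new RNA, and how far did each CDK9 inhibitor hold that back? CCND1, the D-type cyclin that couples growth signals to CDK4 and CDK6, took up label steadily with DMSO and had a far lower conversion level with either compound, while its level overlapped between the compounds and DMSO. CDKN1B had the highest conversion level of the 8 genes tested with DMSO, and its conversion was also lower with both compounds in every library. CCNE2 and CDKN1B had fallen in level by 4 h with DMSO, against 0 h. So had CCNE1, but its fall was in part set by the filter, which it passed only through the 0 h libraries. No level of the 10 genes passed the test between a compound and DMSO.

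The conversion level of CCND1 was 0.582%, 0.558% and 0.314% in the 3 libraries at 0 h. With DMSO it was 1.62%, 2.74% and 2.67% at 2 h, 6.40%, 5.43% and 8.79% at 4 h, and 10.2%, 16.6% and 13.8% at 8 h. The 3 times with DMSO did not overlap with each other or with 0 h, and each was called higher than 0 h. The DMSO means at 2, 4 and 8 h were 2.34% ± 0.628, 6.87% ± 1.72 and 13.5% ± 3.21, against 0.485% ± 0.148 at 0 h (SD, n = 3 each). The adjusted p-values from limma were 0.00121, 5.09e-11 and 4.48e-16.

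With KB742 the conversion level of CCND1 was 1.49%, 0.751% and 0.993% at 2 h, 0.764%, 0.854% and 1.46% at 4 h, and 1.63%, 1.37% and 1.01% at 8 h. With KI-ARv-03 it was 0.986%, 0.829% and 0.984% at 2 h, 2.60%, 1.18% and 1.30% at 4 h, and 1.81%, 1.03% and 1.59% at 8 h. Every library with a compound lay below every DMSO library of its own time. The highest of the KI-ARv-03 values came from replicate 1 at 4 h, the library with high conversion over all genes. At 8 h KB742 averaged 1.34% ± 0.313 and KI-ARv-03 1.48% ± 0.404, against 13.5% ± 3.21 for DMSO (SD, n = 3 each), ratios of 0.0987 and 0.109. At 4 h the ratios to DMSO were 0.149 with KB742 and 0.246 with KI-ARv-03. At 2 h they were 0.461 and 0.398, and neither passed the test, with adjusted p = 0.117 for KB742 and 0.0786 for KI-ARv-03 in limma. At 4 h limma gave adjusted p = 7.75e-08 for KB742 and 2.87e-06 for KI-ARv-03, and at 8 h 7.91e-14 and 8.35e-12. The difference from DMSO was larger at 8 h than at 2 h for both compounds, tested as an interaction in limma, with adjusted p = 2.61e-07 for KB742 and 7.39e-07 for KI-ARv-03. On a log2 scale, which measures a ratio, the same interactions had adjusted p = 0.0682 and 0.196.

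The level of CCND1 was 3057, 3028 and 4224 CPM at 0 h. With DMSO it was 3005, 2709 and 4374 CPM at 2 h, 3396, 2348 and 2229 CPM at 4 h, and 2279, 2444 and 3743 CPM at 8 h. The range at each of these times overlapped the range at 0 h. The log2 differences of DMSO from 0 h were -0.05, -0.38 and -0.30 (SE 0.28 each), with adjusted p = 0.964, 0.361 and 0.39 in limma. These rest on the TMM scaling. Scaled by library size, CCND1 was called lower at 4 h (log2 difference -0.74, adjusted p = 0.037) and at 8 h (-1.11, adjusted p = 0.000776), where the median of all genes was itself at -0.33 and -0.87. At 8 h the level was 2383, 2967 and 2876 CPM with KB742, 2319.8, 3316 and 2149 CPM with KI-ARv-03, and 2279, 2444 and 3743 CPM with DMSO. These 3 groups overlapped. The log2 difference from DMSO was -0.01 with KB742 (95% interval -0.59 to 0.57) and -0.11 with KI-ARv-03 (-0.69 to 0.47). At 2 h the level was 3711, 3949.8 and 3591 CPM with KB742 and 2351, 3429.7 and 3932 CPM with KI-ARv-03. At 4 h it was 3833, 3124 and 2005 CPM with KB742 and 3624, 2979 and 4075 CPM with KI-ARv-03, both overlapping DMSO.

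**Figure D1:**
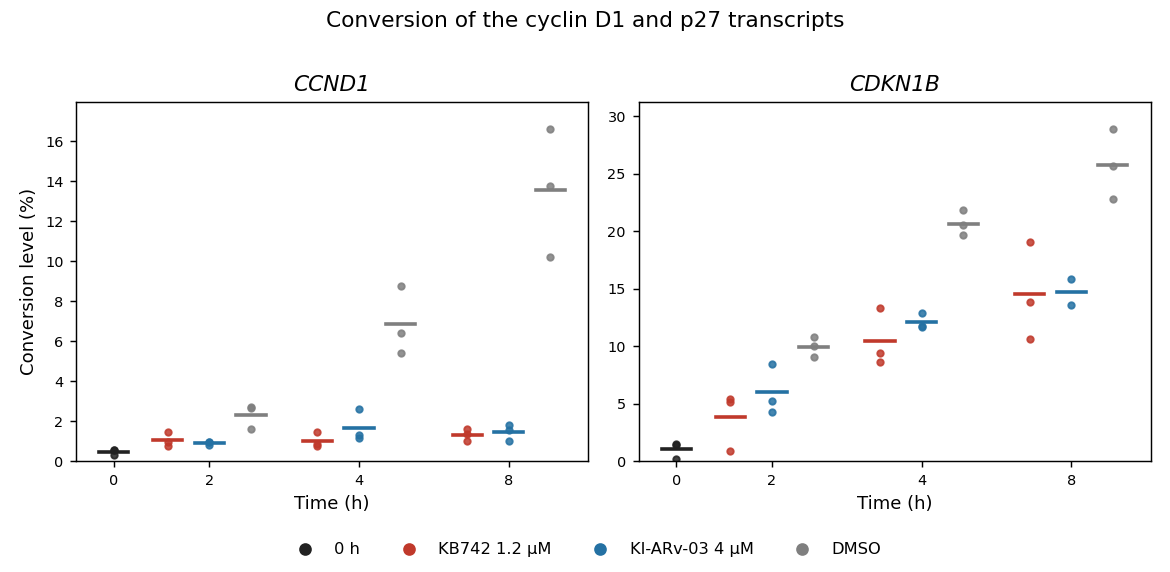
Conversion level in percent (y axis) of CCND1 and CDKN1B by time in hours (x axis), with 1 point per library behind at least 20 reads and a line at each group mean. Both compounds hold every CCND1 point of 4 and 8 h at or below 2.60%, under every DMSO point of the same time, while CDKN1B reached 19.1% with KB742 and 28.9% with DMSO.

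CDKN1B, the gene of p27, had a conversion level of 1.53%, 1.40% and 0.20% at 0 h. With DMSO it was 9.04%, 10.0% and 10.8% at 2 h, 21.8%, 20.5% and 19.7% at 4 h, and 22.8%, 25.7% and 28.9% at 8 h. These times did not overlap with each other or with 0 h. All 3 were called higher than 0 h, with adjusted p = 3.43e-05, 2.21e-10 and 2.6e-12 in limma.

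With KB742 the CDKN1B values were 5.15%, 0.881% and 5.44% at 2 h, 8.64%, 9.44% and 13.4% at 4 h, and 13.8%, 10.7% and 19.1% at 8 h. With KI-ARv-03 they were 4.30%, 8.45% and 5.27% at 2 h, 11.8%, 11.7% and 12.9% at 4 h, and 15.8% and 13.6% at 8 h, where replicate 2 had 18 reads and gave no value. All of them lay below the DMSO libraries of the same time, and the range of each compound was higher at 8 h than at 2 h. Ratios to DMSO at 2, 4 and 8 h were 0.384, 0.507 and 0.563 for KB742, and 0.603, 0.587 and 0.572 for KI-ARv-03. At these times limma gave KB742 adjusted p = 0.0356, 0.00396 and 0.00117, and gave KI-ARv-03 0.305, 0.028 and 0.00504. The interaction of compound and time was not called, with adjusted p = 0.959 for KB742 and 0.531 for KI-ARv-03. The call with KB742 at 2 h was lost without the 3 libraries named above (adjusted p = 0.203) and without replicate 2 with KB742 alone (0.335), without DMSO replicates 1, 2 or 3 (0.0518, 0.104 and 0.155) and among the compared groups alone (0.24). That with KI-ARv-03 at 4 h was lost without DMSO replicates 1, 2 or 3 (0.0922, 0.0569 and 0.0561) and without KI-ARv-03 replicates 2 or 3 (0.112 and 0.0651), and none of the calls of the compounds passed on a log2 scale (0.261 to 0.682).

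The level of CDKN1B was 113, 124 and 127 CPM at 0 h. With DMSO it was 59.9, 49.7 and 36.7 CPM at 2 h, 47.1, 46.6 and 41.4 CPM at 4 h, and 29.2, 37.6 and 27.7 CPM at 8 h. Every later library lay below every library at 0 h. CDKN1B fell by 1.32 on the log2 scale at 2 h (SE 0.33, adjusted p = 0.0259 in limma), by 1.41 at 4 h (0.00344) and by 1.92 at 8 h (4.56e-05). The call at 2 h was lost without any 1 of replicates 1, 2 or 3 at 0 h (adjusted p = 0.0672, 0.0921 and 0.0711), without DMSO replicates 2 or 3 (0.0601 and 0.163), and without the 3 libraries named above (0.0761).

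Between a compound and DMSO, CDKN1B came nearest to a call of level. At 4 h it had 25.5, 27.3 and 29.6 CPM with KB742 and 26.3, 23.9 and 20.05 CPM with KI-ARv-03, against 47.1, 46.6 and 41.4 CPM with DMSO. Neither compound overlapped DMSO there. The log2 difference was -0.69 with KB742 (95% interval -1.38 to -0.01, adjusted p = 0.997) and -0.92 with KI-ARv-03 (-1.60 to -0.24, adjusted p = 0.835 in limma). At 8 h it had 26.9, 18.6 and 19.3 CPM with KB742 and 24.3, 9.50 and 28.1 CPM with KI-ARv-03, against 29.2, 37.6 and 27.7 CPM with DMSO. Only KB742 stood clear of DMSO at 8 h, with a log2 difference of -0.53 and adjusted p = 0.496, while KI-ARv-03 had -0.70 and 0.277 in limma. At 2 h both compounds overlapped DMSO, with 35.0, 34.0 and 38.5 CPM with KB742 and 63.0, 20.7 and 44.5 CPM with KI-ARv-03.

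CCNE1, a cyclin that activates CDK2 late in G1, nearly vanished from the libraries after 0 h. It had 10.1, 9.59 and 14.3 CPM at 0 h, and with DMSO 0.365, 0.776 and 1.07 CPM at 2 h. At 4 h with DMSO 2 libraries had no read and 1 had 0.797 CPM, and at 8 h no DMSO library had a read. The reads summed over the 3 libraries were 135 at 0 h, and 5, 2 and 0 with DMSO at 2, 4 and 8 h. Taking 3 reads over the group as the limit that a count of 0 allows, or 0.569 CPM, CCNE1 with DMSO at 8 h was at least 19.9-fold lower than at 0 h. It was called lower with DMSO at 2 h (adjusted p = 0.000202 in limma), 4 h (2.86e-06) and 8 h (1.25e-07). Since CCNE1 passed the filter only through the 0 h libraries, a difference from 0 h was in part set by that filter, and its fitted log2 differences depend on the pseudocount.

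At 2 h CCNE1 had 2.19, 1.96 and 1.92 CPM with KB742 and 2.52, 0.740 and 1.90 CPM with KI-ARv-03, against 0.365, 0.776 and 1.07 CPM with DMSO. The KB742 libraries did not overlap the DMSO libraries, and the KI-ARv-03 libraries did. The log2 difference of KB742 from DMSO was 0.82 (95% interval 0.00 to 1.64, adjusted p = 1.00 in limma). Behind these levels were 16 reads (KB742), 18 reads (KI-ARv-03) and 5 reads (DMSO). At 4 h the sums were 6 reads with KB742, 5 with KI-ARv-03 and 2 with DMSO, and at 8 h 1, 1 and 0, too few to show a difference.

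CCNE2, the other E-type cyclin, had 24.7, 26.5 and 13.5 CPM at 0 h. With DMSO it had 5.84, 10.9 and 3.20 CPM at 2 h, 2.45, 2.79 and 5.31 CPM at 4 h, and 0, 2.33 and 1.85 CPM at 8 h. All DMSO libraries lay below those at 0 h. CCNE2 fell by 2.32 on the log2 scale at 4 h (SE 0.50, adjusted p = 0.00176 in limma) and by 3.36 at 8 h (7.63e-06), while at 2 h the difference was -1.64 with adjusted p = 0.0838. At 2 h CCNE2 was called lower by DESeq2 (adjusted p = 0.0364), with scaling by library size (0.0464), in values as deposited (0.00904), with all transcripts summed (0.0417) and without the 3 libraries named above (0.0434). At 8 h it had 3.21, 3.01 and 2.22 CPM with KB742 and 1.21, 2.11 and 3.72 CPM with KI-ARv-03, both overlapping DMSO, with log2 differences of 0.84 and 0.59 from it. At 2 h it had 8.38, 3.52 and 13.5 CPM with KB742 and 9.62, 8.51 and 9.12 CPM with KI-ARv-03. At 4 h the values were 2.64, 2.94 and 7.70 CPM with KB742 and 5.62, 1.74 and 3.22 CPM with KI-ARv-03. Each of these ranges overlapped that of DMSO. Both E-type cyclins had too few reads for their conversion to be tested.

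Counted over the 10 genes, DMSO against 0 h called 2 lower at 2 h (CCNE1 and CDKN1B), where 2.63% of all genes tested were called lower. At 4 h CCNE1, CCNE2 and CDKN1B were lower, 3 of 10 against 14.6% of all genes, and at 8 h the same 3 genes against 29.0% of all genes. None of the 10 was called higher at 4 or 8 h, against 5.74% and 20% of all genes. CCNE1 passed the filter only through the 0 h libraries and so had to be lower later, and the counts that hold it are no measure of the 10 genes against all genes. At these 3 times the 10 genes had median log2 differences of -0.16, 0.0089 and -0.25, against -0.014, 0.012 and -0.14 over all genes. Time, the length of labelling and the change of medium differed together between DMSO and 0 h, and their parts cannot be told apart. All comparisons with 0 h share the same 3 libraries, and both compounds share the DMSO libraries of each time.

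Between a compound and DMSO, 0 of the 10 genes were called for level at any time by limma, edgeR or DESeq2. The share of all genes called at 2, 4 and 8 h was 0.0263%, 0.114% and 1.83% for KB742, and 0.0263%, 0.0701% and 2.92% for KI-ARv-03. At an unadjusted p under 0.05, limma had CCNE1 with KB742 at 2 h, CDKN1B with KB742 at 4 h, and CDKN1B with KI-ARv-03 at 4 and 8 h. The effect on level at 8 h was not called different from that at 2 h for any of the 10 by limma, edgeR or DESeq2, with 0.00876% of all genes called for each compound and 0 of the 10 at an unadjusted p under 0.05. Median log2 differences of the 10 genes from DMSO at the 3 times were 0.28, 0.16 and 0.075 for KB742, and 0.22, 0.20 and 0.046 for KI-ARv-03. Over all genes it was 0.0081, -0.016 and -0.027 with KB742, and 0.041, 0.0044 and 0.0018 with KI-ARv-03. Over all genes the 95% interval of such a difference had a median half-width of 0.865 with 3 libraries a group. For a gene of that spread, a smaller difference does not reach an unadjusted p of 0.05. A call after adjustment needs a larger difference still.

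**Figure D2:**
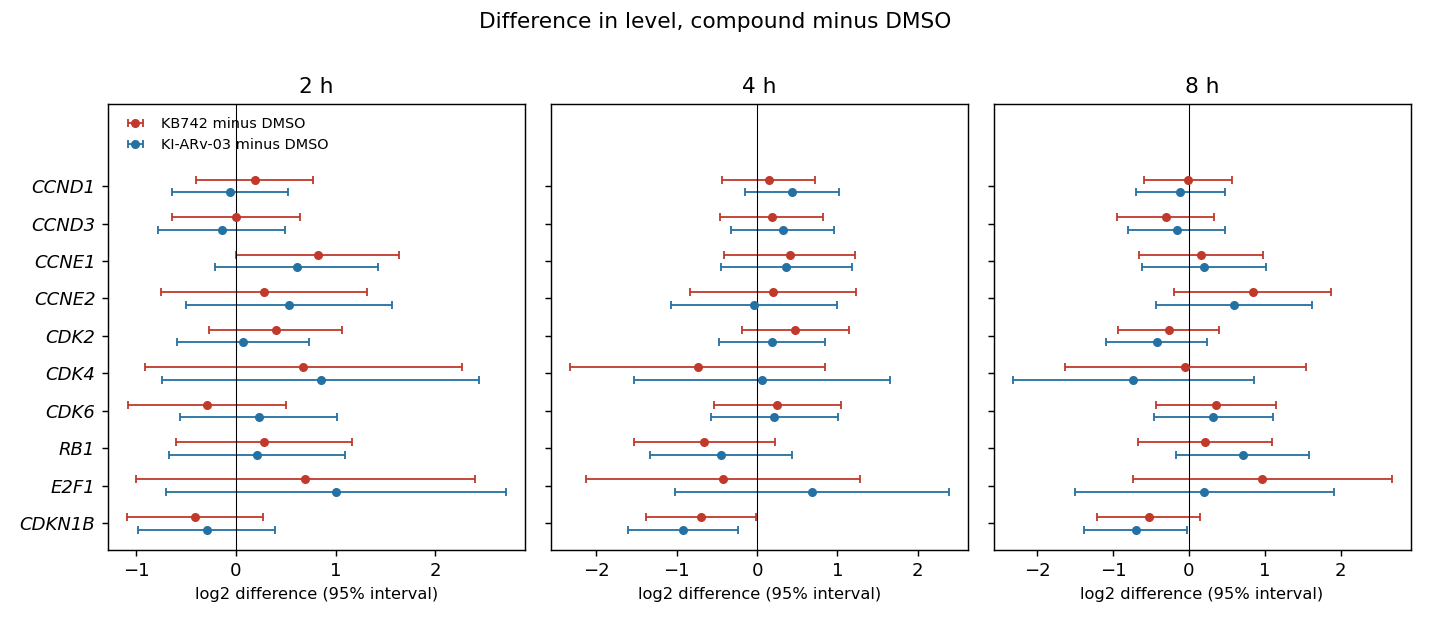
Log2 difference in level, compound minus DMSO (x axis), of the 10 genes (rows) at 2, 4 and 8 h, with points at the fitted difference and bars for its 95% interval. The intervals are widest for CDK4 and E2F1, and those of CDKN1B at 4 h lie below 0, at -1.38 to -0.01 with KB742 and -1.60 to -0.24 with KI-ARv-03.

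For conversion 8 of the 10 genes had enough reads. With DMSO against 0 h, CCND1 and CDKN1B were called higher at 2 h, where 8.36% of all genes tested were. CCND3 joined them at 4 h (34.8% of all genes), and CCND3 and CDK6 did at 8 h (43.0%). With KB742 against DMSO, CDKN1B was called lower at 2 h (0.964% of all genes), CCND1 and CDKN1B at 4 h (17.4%), and CCND1, CDKN1B and CCND3 at 8 h (34.8%). With KI-ARv-03, 0 genes were called at 2 h (0.796% of all genes), with CCND1 and CDKN1B at an unadjusted p under 0.05 in limma. CCND1 and CDKN1B were called lower with KI-ARv-03 at 4 h (7.19%), and CCND1, CDKN1B and CDK2 at 8 h (36.9%). The interaction of compound and time was called for 1 of 8 genes with each compound, CCND1 both times, against 4.71% of all genes for KB742 and 5.36% for KI-ARv-03. At 8 h the counts of 3 of 8 genes with either compound were close to the shares over all genes. So were the counts with DMSO against 0 h, 3 of 8 genes at 4 h and 4 of 8 at 8 h.

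CCND3, a D-type cyclin that like CCND1 activates CDK4 and CDK6, had conversion levels of 1.62%, 3.44% and 1.40% with DMSO at 8 h, against 0.404%, 0.284% and 0% at 0 h (adjusted p = 0.004 in limma). At 8 h it had 0.086%, 0.316% and 0% with KB742 and 1.14%, 0.326% and 0.609% with KI-ARv-03. Both compounds lay below DMSO in every library. KB742 passed the test (adjusted p = 0.00259) and KI-ARv-03 did not (0.0883, and 0.0357 without the 3 libraries named above). With DMSO at 4 h the values were 0.639%, 1.42% and 2.71%, called higher than 0 h with adjusted p = 0.027 in limma. That call was lost without DMSO replicates 2 or 3 (0.0542 and 0.161), without 0 h replicate 3 (0.156) and without the 3 libraries (0.0774). The level of CCND3 was 24.9 to 61.6 CPM over all libraries. With DMSO at 8 h it was 52.7, 59.7 and 45.2 CPM, against 31.4, 24.9 and 41.1 CPM at 0 h, which did not overlap. That log2 difference was 0.70 with adjusted p = 0.0647 in limma (0.037 without the 3 libraries), and was -0.09 when scaled by library size.

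CDK6, a partner kinase of D-type cyclins, had conversion levels of 3.86%, 2.43% and 2.23% with DMSO at 8 h, against 0.382%, 0.350% and 0% at 0 h (adjusted p = 0.00164 in limma). At 8 h it had 0.544%, 1.99% and 1.50% with KB742 and 1.29%, 1.03% and 0.397% with KI-ARv-03. All 6 of these libraries lay below those with DMSO, but neither compound passed the test. The adjusted p was 0.177 for KB742 and 0.0648 for KI-ARv-03 in limma, and 0.0402 for KI-ARv-03 without the 3 libraries. Its level was 14.3 to 60.7 CPM over all libraries.

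CDK2, the partner kinase of E-type cyclins, took up little label. At 8 h its conversion level was 0.193%, 0% and 0.187% with KI-ARv-03 and 0.135%, 0.115% and 0.164% with KB742, against 0.286%, 0.663% and 0.578% with DMSO. Neither compound overlapped DMSO. KI-ARv-03 passed the test with adjusted p = 0.0444 in limma and KB742 did not (0.106, and 0.0249 without the 3 libraries). The call with KI-ARv-03 had an adjusted p of 0.0501 with a replicate block, and of 0.144, 0.111 and 0.253 without DMSO replicates 2 or 3 or KI-ARv-03 replicate 2. The level of CDK2 was 136 to 408 CPM, and its highest library was replicate 3 at 0 h, against 151 and 158 CPM in the others of that group.

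CDK4, the main partner kinase of CCND1, had a conversion level of at most 0.303% in every library except replicate 1 with KI-ARv-03 at 4 h, where it was 1.14%. The same library had the highest value of E2F1 in its group (1.82%, against 0.070% and 0.212%), of RB1 (1.53%, against 0.727% and 0%), and of CDK2 (1.50%, against 0.112% and 0.225%). Without it the sign of the CDK4 difference from DMSO turned at 4 h. E2F1, a transcription factor that RB1 restrains, had 0.270%, 0.147% and 0.063% with KI-ARv-03 at 8 h, against 0.448%, 1.57% and 0.518% with DMSO. Those groups did not overlap, with adjusted p = 0.0527 in limma and 0.00711 without the 3 libraries, none of which is in either group. Without the 3 libraries CDK4 conversion was also called lower with KB742 at 4 h (adjusted p = 0.0293) and 8 h (0.026) and with KI-ARv-03 at 4 h (0.0407) and 8 h (0.0122), and higher with DMSO at 8 h against 0 h (0.0413). E2F1 conversion was then called lower with KB742 at 8 h (0.0376), CCND3 with KI-ARv-03 at 4 h (0.0413), and CDK2 was called higher with DMSO at 8 h against 0 h (0.0498). RB1, the brake on E2F factors, was not called for conversion in any comparison. Its level was 8.21 to 57.0 CPM over all libraries and was not called in any comparison either.

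**Figure D3:**
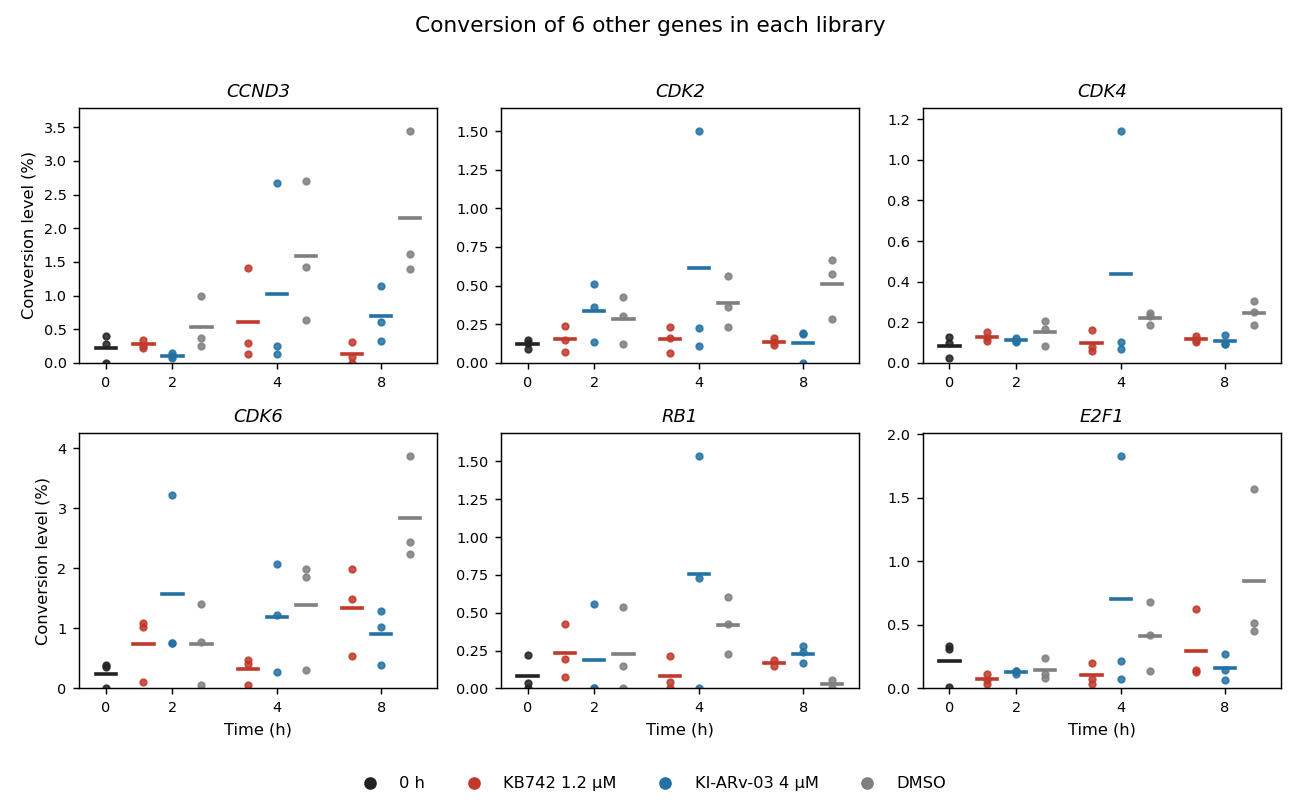
Conversion level in percent (y axis) of CCND3, CDK2, CDK4, CDK6, RB1 and E2F1 by time in hours (x axis), with 1 point per library behind at least 20 reads and a line at each group mean. CCND3 reached 3.44% and CDK6 3.86% with DMSO at 8 h, and CDK4, CDK2, RB1 and E2F1 each have 1 high point at 4 h, from replicate 1 with KI-ARv-03.

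CDK4 and E2F1 varied widely between the replicates of a group. At 8 h CDK4 had 334, 1720.0 and 523 CPM with KB742 and 264, 1989.7 and 137 CPM with KI-ARv-03, against 541, 409 and 1512 CPM with DMSO. In the same order of libraries E2F1 had 66.2, 383 and 143 CPM with KB742 and 53.0, 446 and 30.6 CPM with KI-ARv-03, against 65.1, 37.6 and 194 CPM with DMSO. In each group the library highest in CDK4 was also highest in E2F1. The same held at 2 h, where CDK4 had 1559, 379 and 803 CPM with KB742 and 353, 1578 and 1229.7 CPM with KI-ARv-03, against 341, 295 and 1158 CPM with DMSO. E2F1 then had 424, 104 and 288 CPM with KB742 and 109.5, 536 and 409 CPM with KI-ARv-03, against 85.8, 83.1 and 412 CPM with DMSO.

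At 4 h CDK4 had 459, 389.5 and 278 CPM with KB742, 344, 592 and 1306 CPM with KI-ARv-03, and 631, 382 and 966 CPM with DMSO. E2F1 had 141, 97.8 and 52.7 CPM with KB742, 107, 156 and 440.0 CPM with KI-ARv-03, and 159.8, 75.3 and 148 CPM with DMSO. Here DMSO departed from the pattern, since its library with the most CDK4 was not that with the most E2F1. At 0 h CDK4 had 257, 210.5 and 323 CPM and E2F1 97.9, 84.0 and 128 CPM, a narrower spread than in most later groups. The median ratio of the highest to the lowest library of a group was 3.86 for CDK4 and 4.50 for E2F1, against 1.34 for CDKN1B. The log2 difference of CDK4 with DMSO from 0 h was 0.91, 1.24 and 1.42 at 2, 4 and 8 h (SE 0.78 each), with adjusted p = 0.663, 0.265 and 0.132 in limma. With the compared groups fitted alone CDK4 was called higher at 4 h (adjusted p = 0.0262) and at 8 h (0.0271). E2F1 differed from 0 h by 0.49, 0.25 and -0.38 on the log2 scale (SE 0.83 each), and was not called.

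Over the 30 libraries, with each group's mean log2 level taken off, CDK4 and E2F1 had Pearson's r = 0.982 and Spearman's rho = 0.979. The permutation test within groups gave p = 1e-05 for both, the smallest that 100000 permutations can give, and 0.00028 after Benjamini-Hochberg adjustment over the 28 pairs among the 8 genes compared. Without the 2 libraries farthest from the median of CDK4, r was 0.976. CDKN1B ran the other way, with r = -0.784 to CDK4 (rho = -0.756, permutation adjusted p = 0.0007 and 0.0014) and r = -0.783 to E2F1 (rho = -0.764, 0.000747 and 0.0014). Without the 2 farthest libraries these were -0.674 and -0.694. CDK6 and CDKN1B had r = 0.713 (rho = 0.731, permutation adjusted p = 0.00119 and 0.0014), and 0.645 without the 2 farthest libraries. Further pairs passed the permutation test of r. CCND1 had r = 0.742 to E2F1, 0.657 to CDK4, -0.625 to CDK6 and -0.522 to CDKN1B (adjusted p = 0.00129, 0.00311, 0.00448 and 0.0379). CDK6 had r = -0.706 to E2F1 and -0.687 to CDK4 (adjusted p = 0.00311 each). CCND3 had r = 0.566 to CDK2 and -0.620 to RB1 (0.0305 and 0.0213). Pairs of other genes were not examined. These relations were singled out after the values had been seen. The labels give no batch, so no value within a batch could be had, and nothing else in them names what the libraries high in CDK4 share. CDK4 and E2F1 were higher where the deposited CPM of a library summed to less. With group means taken off, the log2 of that sum had r = -0.579 to CDK4 (rho = -0.637) and r = -0.587 to E2F1 (rho = -0.638), with permutation p adjusted over 6 relations of 0.00651 for r and 0.00495 for rho in both cases. Without the 2 libraries farthest from the median of each gene, r was -0.604 and -0.563. The other 4 relations, to TMM factors and to the number of genes detected, had r of -0.403 to -0.326 (permutation adjusted p = 0.064 each), and of these only the rho of E2F1 to genes detected (-0.497, adjusted p = 0.0341) passed. The part of the CPM sum in these levels was not tested. TSPAN31 overlaps the 3′ end of CDK4 on the opposite strand, and its reads might be counted with those of CDK4. It had 22.2 to 66.8 CPM. Its log2 level had r = 0.107 to CDK4 over the 30 libraries, here without group means taken off. Whether its reads add to those of CDK4 was not tested.

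**Figure D4:**
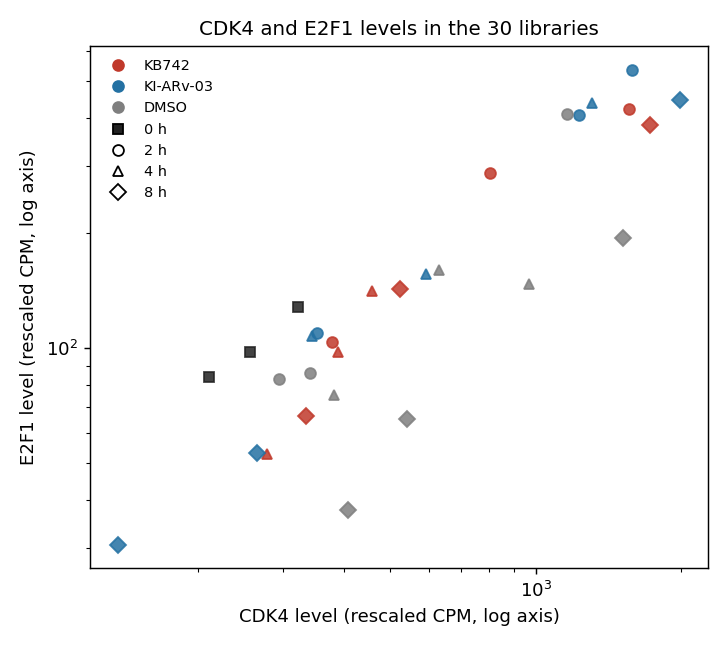
Level of E2F1 (y axis) against level of CDK4 (x axis), both in rescaled CPM on log axes, with 1 point per library and colours for the treatment and shapes for the time. The levels of both genes rise together from 137 CPM of CDK4 and 30.6 CPM of E2F1 to 1989.7 and 446 CPM, with DMSO at 8 h on the lower edge, and 0 h lies between 210.5 and 323 CPM of CDK4.

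**Figure D5:**
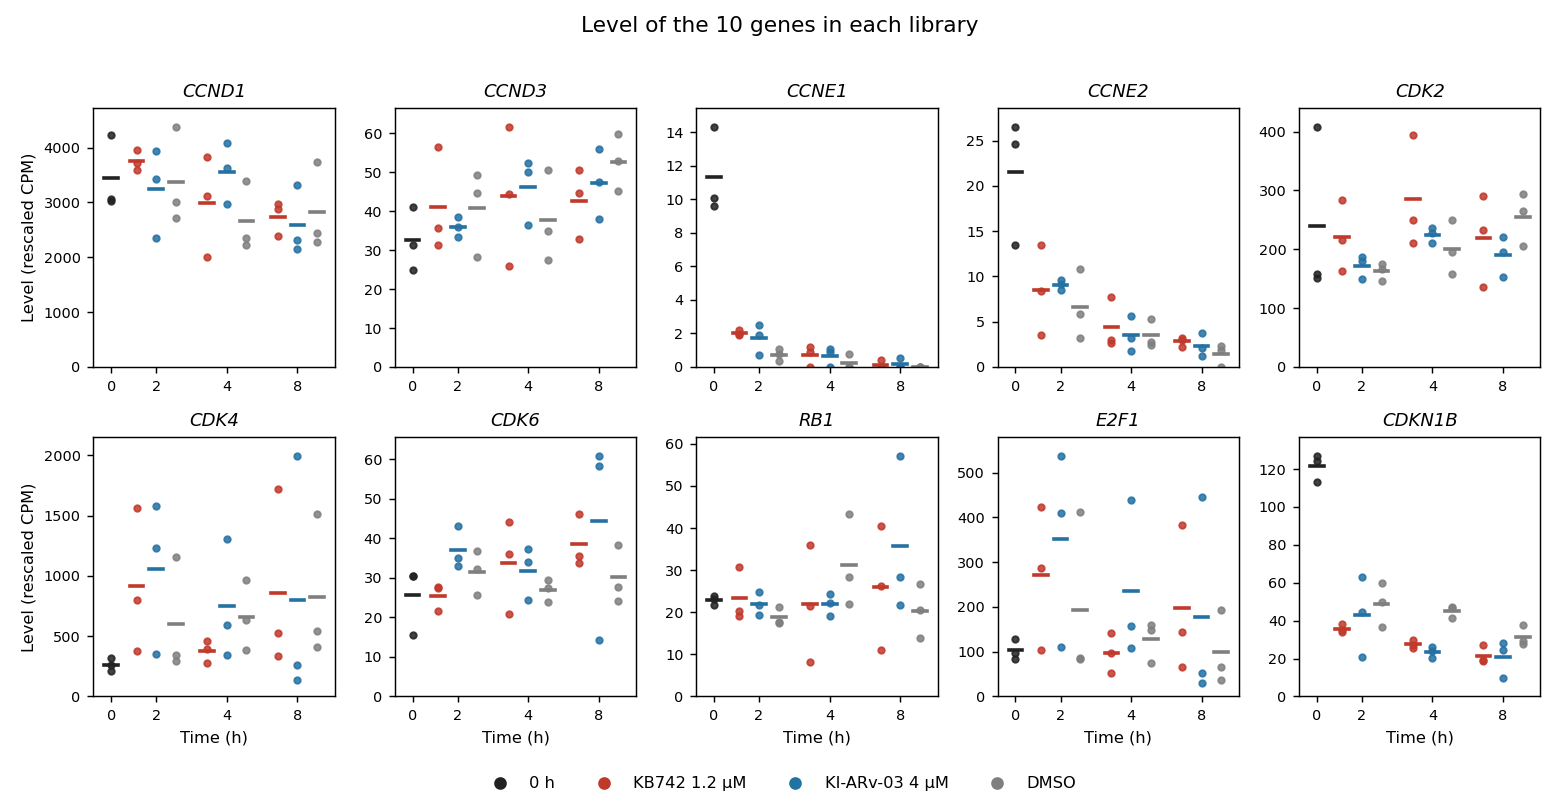
Level in rescaled CPM (y axis) of the 10 genes by time in hours (x axis), with 1 point per library and a line at each group mean, points of KB742, KI-ARv-03 and DMSO standing from left to right at each time. CCNE1, CCNE2 and CDKN1B are highest at 0 h, at 9.59 to 14.3, 13.5 to 26.5 and 113 to 127 CPM, and CDK4 and E2F1 scatter within groups.

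CCNE1, CCNE2 and CDKN1B had the widest range of group means among the 10 genes. Over the 10 group means of log2 level, the genes most like CCNE1 were PPP1R10 (Pearson's r = 0.986), PCF11 (0.983) and SMIM13 (0.980). CCNE2 was most like PTCH1 (0.993), SIAH2 (0.992) and CSRNP2 (0.988), and CDKN1B most like MED9 (0.985), FADD (0.981) and ZBTB39 (0.981). All 9 had a higher mean at 0 h than with DMSO at 8 h. This follows from how they were picked, by likeness to 3 genes that were highest at 0 h. PPP1R10 had 40.5 CPM at 0 h and 0.388 CPM with DMSO at 8 h, and PTCH1 46.9 and 1.80 CPM.

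Other genes around these, 58 on lists of pocket proteins and E2F partners, other inhibitors of the kinases, activators, turnover factors and E2F targets, were examined as the surroundings of the 10. Of them 55 were tested for level. At 2 and 4 h limma called 0 of the 55 with either compound against DMSO. At an unadjusted p under 0.05 there were 3 genes with KB742 and 1 with KI-ARv-03 at 2 h, and 6 and 4 at 4 h. edgeR also called 0, and DESeq2 called CDC6 with KB742 at 4 h alone. At 8 h, KB742 had 5 genes higher and KI-ARv-03 6, against 1.23% and 1.93% of all genes, and 0 were lower. The lists were chosen with earlier results of these data known, so such counts are no measure of the lists against all genes. CDC6, which loads the replicative helicase at origins and is an E2F target, averaged 11.2 CPM ± 3.50 (KB742) and 15.9 ± 3.14 (KI-ARv-03), against 3.07 ± 1.21 (DMSO; SD, n = 3 each, limma adjusted p = 0.00136 and 3.86e-05). CUL1, the scaffold of the ligase that degrades p27 and cyclin E, averaged 33.1 CPM ± 2.18 (KB742) and 28.0 ± 3.16 (KI-ARv-03), against 9.85 ± 2.20 (DMSO; limma adjusted p = 8.96e-05 and 0.000334). CCNA2, the S-phase cyclin, averaged 63.1 CPM ± 30.5 (KB742) and 76.0 ± 26.3 (KI-ARv-03), against 22.2 ± 4.38 (DMSO; 0.0147 and 0.00144). CDKN2D, an inhibitor of CDK4 and CDK6, and LIN9, a DREAM complex subunit, were also higher with both, and USP28, a deubiquitinase, with KI-ARv-03. edgeR called CCNA2, CDC6, CDKN2D and CUL1 with each compound, and DESeq2 called 4 genes with KB742 and 7 with KI-ARv-03. Before treatment, at 0 h, these means were 79.2 CPM for CDC6, 87.0 for CUL1 and 184 for CCNA2, above the means of either compound at 8 h, a difference that was not tested. With DMSO against 0 h, 6 of the 55 were lower at 2 h (2.63% of all genes). At 4 h 2 were higher and 16 lower (5.74% and 14.6% of all genes), and at 8 h 9 were higher and 23 lower (20% and 29.0%).

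For conversion the lists had 49 genes tested at 2 h, 42 at 4 h and 33 at 8 h. Against DMSO, 0, 5 and 12 of them were called lower with KB742, where 0.964%, 17.4% and 34.8% of all genes were, and 0, 2 and 12 with KI-ARv-03, where 0.796%, 7.19% and 36.9% were. The counts at 8 h are close to these shares. At 2 h 4 genes with KB742 and 8 with KI-ARv-03 had an unadjusted p under 0.05 in limma. Called lower at 4 h were CDKN1A, CUL4A, MCM3, MCM5 and RRM2 with KB742, and CDKN1A and CDT1 with KI-ARv-03. At 8 h both compounds had CCNA2, CDC37, CDKN1A, CDKN1C, CDT1, E2F4, MCM4, MCM5, MCM7 and RRM2 called lower. CUL3 and CUL4A were called at 8 h with KB742 alone, and CKS1B and MCM3 with KI-ARv-03 alone. CDKN1A, the gene of the kinase inhibitor p21, was among the 12 at 8 h with each compound. Its conversion level at 8 h was 3.64% ± 2.08 (KB742) and 3.39% ± 0.553 (KI-ARv-03), against 15.9% ± 1.79 (DMSO; SD, n = 3 each, limma adjusted p = 1.27e-07 and 1.97e-07). CDT1, which licenses origins together with CDC6, had 2.93% ± 0.914 (KB742) and 2.26% ± 0.871 (KI-ARv-03), against 9.76% ± 3.58 (DMSO; 0.000739 and 0.000237). E2F4, an E2F factor that acts with the pocket proteins as a repressor, had 1.26% ± 0.189 (KB742) and 1.32% ± 0.531 (KI-ARv-03), against 6.56% ± 1.56 (DMSO; 0.000144 and 0.000197). CDKN1C, the gene of the related inhibitor p57, had 0.902% ± 0.631 (KB742) and 0.877% ± 0.429 (KI-ARv-03), against 5.43% ± 2.03 (DMSO; 0.0135 and 0.0184). With DMSO against 0 h, 5 of 49, 11 of 42 and 9 of 33 genes of the lists were higher at 2, 4 and 8 h, where 8.36%, 34.8% and 43.0% of all genes were.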

How the data were processed

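RNA of 22Rv1 cells was measured by SLAM-seq in 30 libraries. The build was hg19, per the submitters' processing notes, and the deposited table has 85618 rows, each a RefSeq transcript. Of 50925 identifiers, 99.2% matched a symbol, and rows without one held 0.478% of reads and were left out. The authors' first measure, under a CPM heading, is used as a signal. All of its values (100%, within 0.05 of a whole number) were whole multiples of a library's smallest step, so whole reads were recovered. The authors' second measure, the conversion, is a fraction and is printed in percent; what was divided by what is not recorded in the table. Not given in the sources used here are the aligner, the conversion caller and whether strand was used. The number of value columns not used was 0. Group, compound and time came from the sample titles, and doses from the labels' protocols, because other label fields name other times, another dose or DMSO for every sample.

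Reads on the genes tested came to 1413436 to 3963424 per library. Levels are recovered reads rescaled by TMM factors from edgeR 4.0.16. limma 3.58.1 (R 4.3.3, trended variances) was fitted to log2(CPM + 1) of the 11420 genes that passed filterByExpr with a minimum count of 10, with all 10 groups in 1 fit. A level difference is on this log2 scale, which understates changes of low genes. Conversion went into limma as arcsine(square root), where values behind fewer than 20 reads were treated as missing and each group compared needed at least 2. The planned test of read counts with edgeR gave way to limma, because the table has CPM and not counts, and edgeR and DESeq2 1.42.0 on recovered reads served as alternatives. Relations between genes were tested with 100000 permutations within groups. The scripts were tested on simulated data. Intervals of reads cover counting error only, since the table holds no molecular identifiers.

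Replicate numbers come from the titles. Same-numbered libraries deviated from their group means with correlations of -0.363 to 0.452, and in no comparison were all 3 over 0.1, so the numbers were not taken to pair libraries. The 10 genes, the lists of other genes and the tests were chosen with earlier results of these data known. Besides the 10 genes, the text names genes of the lists that were called between a compound and DMSO, and the 3 genes whose group means were most like those of each of the 3 members with the widest range. Promoters are from RefSeq on GRCh38.p14. Other steps used Python 3.11.15 and its packages pandas 2.3.3, numpy 2.4.6, matplotlib 3.10.9 and scipy 1.17.1.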

Additional observations from a re-analysis of the deposited data

Results flagged for a closer look

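On the arcsine scale, the effect of each compound on the conversion of CCND1 differed between times. The difference from DMSO at 8 h was tested against that at 2 h as an interaction in limma, and the adjusted p was 2.61e-07 for KB742 and 7.39e-07 for KI-ARv-03. On a log2 scale, which measures a ratio, neither interaction was called (adjusted p = 0.0682 and 0.196 in limma). Every library of either compound lay below every DMSO library at both times.

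The conversion of RB1 with KB742 lay on opposite sides of DMSO at 2 times, and this difference was not tested. At 4 h all 3 libraries with KB742 (0%, 0.211% and 0.044%) were below all 3 with DMSO (0.423%, 0.607% and 0.229%). At 8 h the 2 libraries with KB742 that had enough reads (0.185% and 0.150%) were above the 2 with DMSO (0% and 0.057%), and 1 library of each group had 15 reads and gave no value. Neither difference was called, with adjusted p = 0.325 at 4 h and 0.548 at 8 h in limma.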

How the results depend on the processing

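The 3 libraries of a group and the reads of low genes limit these results. CCNE1 had at most 18 reads over any group after 0 h. Of 724 values of results called under at least 1 setting, 641 kept their direction and their side of the threshold. The count of genes called lower for level with DMSO at 2 h was 1 with a pseudocount of 0.25 and 3 with DESeq2, library size scaling, values as deposited or all transcripts summed, against 2. For conversion with KB742, the count at 2 h was 0 (against 1) among compared groups alone, on a log2 scale, from 10 reads, and also without the 3 divergent libraries (KB742 2 h replicate 2, KI-ARv-03 4 h replicate 1 and 0 h replicate 3). On a log2 scale it was 1 at 4 h (against 2), and the 2 interactions fell to 0 (against 1 each). Without those 3 the count at 8 h was 6 (KB742) and 7 (KI-ARv-03), against 3 each. None of those 3 was in the groups compared there, and only the shared spread and the adjustment differed. The share of all genes called without those 3 is not given here, so such counts are no measure of these genes against all genes. With KI-ARv-03 at 2 h the count for conversion was 1 with values weighted by reads (against 0). At 4 h it was 1 among compared groups alone, on a log2 scale and weighted, and 4 without the 3 libraries (against 2). With DMSO at 8 h against 0 h it was 2 from 50 reads (against 4). Leaving out 1 replicate at a time gave 1 to 2 genes for level with DMSO at 2 h and 3 to 4 at 8 h. For conversion it gave 2 to 4 and 4 to 6 with DMSO at 4 and 8 h, 0 to 1 with either compound at 2 h, and 1 to 3 and 2 to 4 with KI-ARv-03 at 4 and 8 h. A replicate block left these counts as they were except conversion with KI-ARv-03 at 8 h (2, against 3), where CDK2 had adjusted p = 0.0501 in limma. The level of CCND3 with DMSO at 8 h against 0 h reversed under library size scaling (-0.0885) and in values as deposited (-0.0287), where CCND1 was called lower at 4 and 8 h (-0.82 and -1.05, limma adjusted p = 0.0271 and 0.00214). The CDK4 conversion difference with KI-ARv-03 at 4 h, on the arcsine scale, reversed without those 3 (-0.0177) and weighted by reads (-0.00679), and ran from -0.0177 to 0.0227 with 1 replicate left out. Where no value is named beside a change, the cause was not tested. Reads shared with overlapping genes could not be told apart.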
